A study of Rattus norvegicus with 4 samples.

Results

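The ventral prostate of TRAP rats given the histone deacetylase inhibitor OBP-801 was compared with the ventral prostate of TRAP rats given saline, miRNA by miRNA. The 2 arrays of the ventral lobe, of 4 arrays in the series, were chosen by the tissue and agent in their labels, and no measured value entered the choice. The OBP-801 group is 1 array of total RNA from the ventral prostate of male TRAP rats injected intravenously with OBP-801, and the saline group is 1 array of the same tissue from male TRAP rats injected with saline. Both groups carried the TRAP transgene, ate a control diet and were injected 2 times weekly for 8 weeks, with 6 weeks as their age at the outset. The dose stands as 1 mg/kg in the treatment protocol and as 1 mg, with no body weight, in the agent label. The number of rats behind each array is not stated in the labels. Each side therefore has 1 array, no difference below has a replicate or a p-value, and the spread between rats was not measured.

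TRAP rats are transgenic rats that express the SV40 T antigen in prostate epithelium under the probasin promoter, which is driven by androgen, and they develop prostate cancer. No rat without the transgene was set beside them here, so the values describe transgenic prostate only. Histone deacetylases remove acetyl groups from histone tails, and inhibitors of them raise histone acetylation and alter transcription. A miRNA is cut from a hairpin precursor, either arm of which can give a mature strand, and it represses messenger RNAs that pair with its seed, bases 2 to 8. In this old naming the star marks the arm that is usually the less abundant. In prostate, miRNAs of the miR-200 family and miR-205 are known from epithelium, miR-143 and miR-145 from smooth muscle, and miR-142 and miR-223 from leukocytes.

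The let-7 sequences are shown first because 1 member stood apart from 7 that share its seed. The mature sequences are those of RefSeq on the rat assembly GRCr8, matched by name, with the seed in capitals.
let-7c: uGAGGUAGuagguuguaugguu
let-7a: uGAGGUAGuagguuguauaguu
let-7b: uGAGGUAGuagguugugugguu
let-7d: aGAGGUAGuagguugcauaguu
let-7e: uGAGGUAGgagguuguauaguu
let-7f: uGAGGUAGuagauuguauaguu
let-7i: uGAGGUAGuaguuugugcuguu
miR-98: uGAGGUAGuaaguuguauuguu
Counted from 1 at the 5′ end, with the base of let-7c first, let-7a differs from let-7c only by G19A and let-7b only by A17G. let-7f differs by G12A and G19A, let-7e by U9G and G19A, and miR-98 by G11A and G19U. let-7d carries U1A, U16C and G19A, and let-7i carries G12U, A17G, U18C and G19U. Whether each probe tells its member from a neighbour that differs by 1 base was not tested. let-7c has 2 loci, 1 at chr7:118683636-118683657 on the plus strand, in the same cluster as let-7b at chr7:118684044-118684065, and 1 on chromosome 11.

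The second set is the miR-17 seed family, shown because all 5 members lay below 0.
miR-106b: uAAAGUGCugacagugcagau
miR-93: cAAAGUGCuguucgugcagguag
miR-20b-5p: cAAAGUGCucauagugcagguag
miR-17-5p: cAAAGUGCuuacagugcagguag
miR-20a: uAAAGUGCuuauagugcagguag
miR-106b at chr12:22157103-22157123 and miR-93 at chr12:22156894-22156916, both on the minus strand, lie within Mcm7, which encodes a subunit of the replicative helicase.

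The third set holds the other single miRNAs to which the results return: miR-16 with its cluster partner miR-15b, whose values lay on opposite sides of 0, miR-29b, which had the lowest difference, and miR-205 and miR-3584-5p, which were higher with OBP-801.
miR-16: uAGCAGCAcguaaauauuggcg
miR-15b: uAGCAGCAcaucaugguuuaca
miR-29b: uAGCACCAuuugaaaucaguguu
miR-205: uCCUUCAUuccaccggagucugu
miR-3584-5p: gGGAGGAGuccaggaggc
miR-15b at chr2:155555197-155555218 and miR-16 at chr2:155555343-155555364, on the plus strand, lie within Smc4, which encodes a condensin subunit. miR-205 lies at chr13:107564588-107564610 on the minus strand. miR-3584-5p lies at chr1:256727582-256727599 on the minus strand, within Itprip. miR-29b has loci on chromosomes 4 and 13.

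Each array carried 679 rat miRNA probes with 1 spot each. A probe was taken as detected if the median of its spot exceeded the mean of the blank spots there by over 2 SD, that is, 116.4 on the OBP-801 array and 123.9 on the saline array. By this limit 290 miRNAs were detected on the OBP-801 array and 299 on the saline array. A total of 260 (38.3% of the probes) were detected on both, 29 only with OBP-801, 39 only with saline and 350 on neither, and miR-26a was detected with OBP-801 but had a faulty spot on the saline array. Just above the limit lay let-7f-1* at 116.7 and miR-501 at 116.6 on the OBP-801 array, with miR-196c* at 116.4 and miR-196b* at 116.3 just below it. On the saline array miR-344b-5p at 124.3 and miR-544 at 124.2 lay just above, and miR-337* at 123.9 and miR-188 at 123.8 just below. Limits set in the same way on the negative controls were 110.2 with OBP-801 and 128.4 with saline. By those limits 325 miRNAs were detected with OBP-801 and 266 with saline, the reverse order. Differences are OBP-801 minus saline in log2 of the normalized signal, a value of 0 meaning equal signal. An offset added to every spot makes the differences of dim miRNAs smaller than they would be without it. Probes differ in how brightly they report the same amount of RNA, so the order of spots by brightness says nothing about which miRNA is more abundant.

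**Figure D1:**
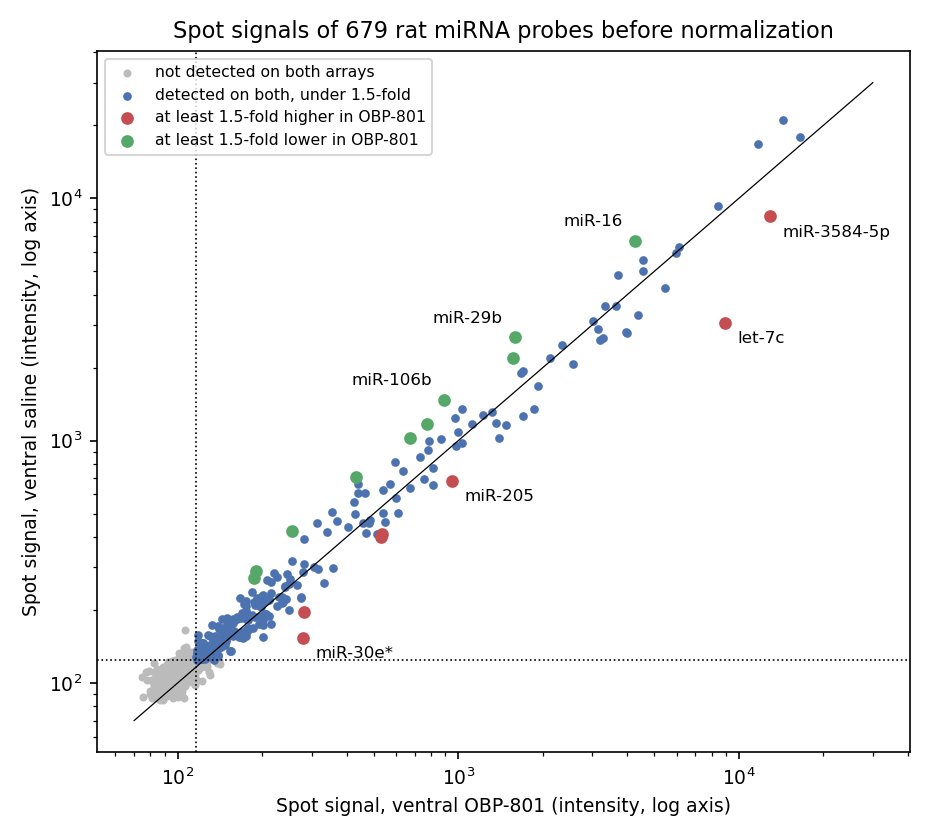
Spot signal (intensity, log axes) of each of the 679 miRNA probes on the ventral OBP-801 array (horizontal) and the ventral saline array (vertical), before normalization. Dotted lines mark the detection limits, the diagonal marks equal signal, and coloured points passed 1.5-fold after normalization; let-7c sits far to the right of the diagonal at 8922 with OBP-801 and 3068 with saline.

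Over the 260 miRNAs detected on both arrays the median difference was -0.02, with 123 above 0 and 137 below. The middle 90% lay between -0.52 and 0.44, and 179 differed by less than 1.2-fold. 2 miRNAs (0.769%) were at least 2-fold higher with OBP-801 and 0 (0%) at least 2-fold lower. At 1.5-fold 7 (2.69%) were higher and 10 (3.85%) lower, together 17 (6.54%). The 2 past 2-fold were let-7c and miR-30e*.

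let-7c (MIMAT0000776), a member of the family that represses Ras and Hmga2 messages, had a spot signal of 8922 with OBP-801, against 3068 with saline. After normalization it was 2.41-fold higher with OBP-801, a difference of 1.27. The other 7 members of the list of let-7 and miR-98 lay below 0, from -0.44 to -0.05, but 3 of them lay above 0 with spike control scaling or cyclic loess, 2 with median centring, 1 without normalization, 3 with the G and C trend removed, 2 with print row medians removed and 1 with print block medians removed. let-7c was the highest member in each of these. let-7a, which is 1 base away from let-7c, had 8397 with OBP-801 and 9331 with saline, a difference of -0.44. The difference of let-7a was -0.15 without normalization and -0.13 with median centring. let-7b, also 1 base away and its neighbour on chromosome 7, had 5954 with OBP-801 and 5972 with saline, a difference of -0.05. let-7d had 6102 with OBP-801 and 6284 with saline, a difference of -0.11. The median of the 8 members was -0.13, near the -0.02 of all miRNAs, and it turned to 0.01 once the trend on base composition described below was removed. In the lateral prostate, measured on the other 2 arrays, let-7c had a spot signal of 12202 with OBP-801 and 10588 with saline. Its difference there was -0.44 after normalization by rank, so that the lateral sign differs between the spot signal and the normalized value.

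miR-30e* (MIMAT0004720), the minor arm of miR-30e, had a spot signal of 281 with OBP-801, against 154 with saline, a ratio of 1.82. After normalization it was 2.17-fold higher with OBP-801 (1.12 on the log2 scale). Its major arm miR-30e (MIMAT0000805), which lies within Nfyc, had 676 with OBP-801 and 1026 with saline, a difference of -0.60. The 2 arms of this one precursor thus lay past 1.5-fold on opposite sides, 1.71 apart on the log2 scale, the widest gap of the 67 precursors with both arms detected on both arrays. miR-30e was printed in block 1, where the median difference was -0.21, and miR-30e* in block 14, where it was 0.07. With print block medians removed miR-30e was no longer past 1.5-fold, and miR-30e* was at 1.04. The part of position in this gap was not tested. All 5 major arms of the miR-30 family lay below 0, with a median of -0.29, but 1 of 5 lay above 0 without normalization, with median centring, with spike control scaling or with print row medians removed, and 2 with cyclic loess. miR-30d was at -0.47, miR-30b-5p at -0.29, miR-30c at -0.13 and miR-30a at -0.11. Without normalization miR-30d was at -0.05 and the median of the family at -0.08.

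The 5 other miRNAs at least 1.5-fold higher with OBP-801 were miR-3584-5p, miR-205, miR-652*, miR-615 and miR-665. miR-3584-5p (MIMAT0017875) had 12912 with OBP-801 and 8430 with saline, a difference of 0.80. Its lateral difference was 0.81. The authors' deposited table, with a median shift of -0.47 over all miRNAs, put it at 0.28, the only alternative of 14 that ended the call. miR-205 (MIMAT0000878), a miRNA of basal epithelium that represses Zeb1 and Zeb2, had 952 with OBP-801 and 685 with saline, a difference of 0.62. It stayed past 1.5-fold in 8 of 14 alternatives, with values of 0.20 to 0.68, and its lateral difference was 0.58. miR-652* had 536 with OBP-801 and 413 with saline, a difference of 0.63 that stayed past 1.5-fold in 3 of 13 alternatives. miR-615, which lies among the Hoxc genes, had 533 with OBP-801 and 399 with saline, a difference of 0.61 that stayed past 1.5-fold in 4 of 13. miR-665, of the imprinted Dlk1-Dio3 cluster, had 282 with OBP-801 and 196 with saline, a difference of 0.62 that stayed past 1.5-fold in 11 of 13.

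Of the 10 miRNAs at least 1.5-fold lower with OBP-801, miR-29b (MIMAT0000801), which represses collagens and DNA methyltransferases, had the lowest difference. Its signal was 1597 with OBP-801 and 2666 with saline, a difference of -0.87. miR-16 (MIMAT0000785), which represses Bcl2 and D-type cyclins, had 4272 with OBP-801 and 6671 with saline, a difference of -0.85. miR-106b (MIMAT0000825) had 891 with OBP-801 and 1474 with saline, a difference of -0.84. These 3 stayed at least 1.5-fold lower in 14 of 14 alternatives. miR-93 had 433 with OBP-801 and 711 with saline, a difference of -0.75, and miR-125a-3p had 255 with OBP-801 and 424 with saline, a difference of -0.74. Both stayed past 1.5-fold in 12 of 13 alternatives. The other 5 lay closer to the line. miR-19a had 190 with OBP-801 and 291 with saline (-0.63), miR-142-5p 187 with OBP-801 and 271 with saline (-0.61), and miR-191, from within Dalrd3, 772 with OBP-801 and 1170 with saline (-0.61). miR-141 had 1563 with OBP-801 and 2189 with saline (-0.60), and miR-30e is given above. These 5 stayed past 1.5-fold in 7 to 10 alternatives, and all 10 stayed below 0 in every alternative.

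**Figure D2:**
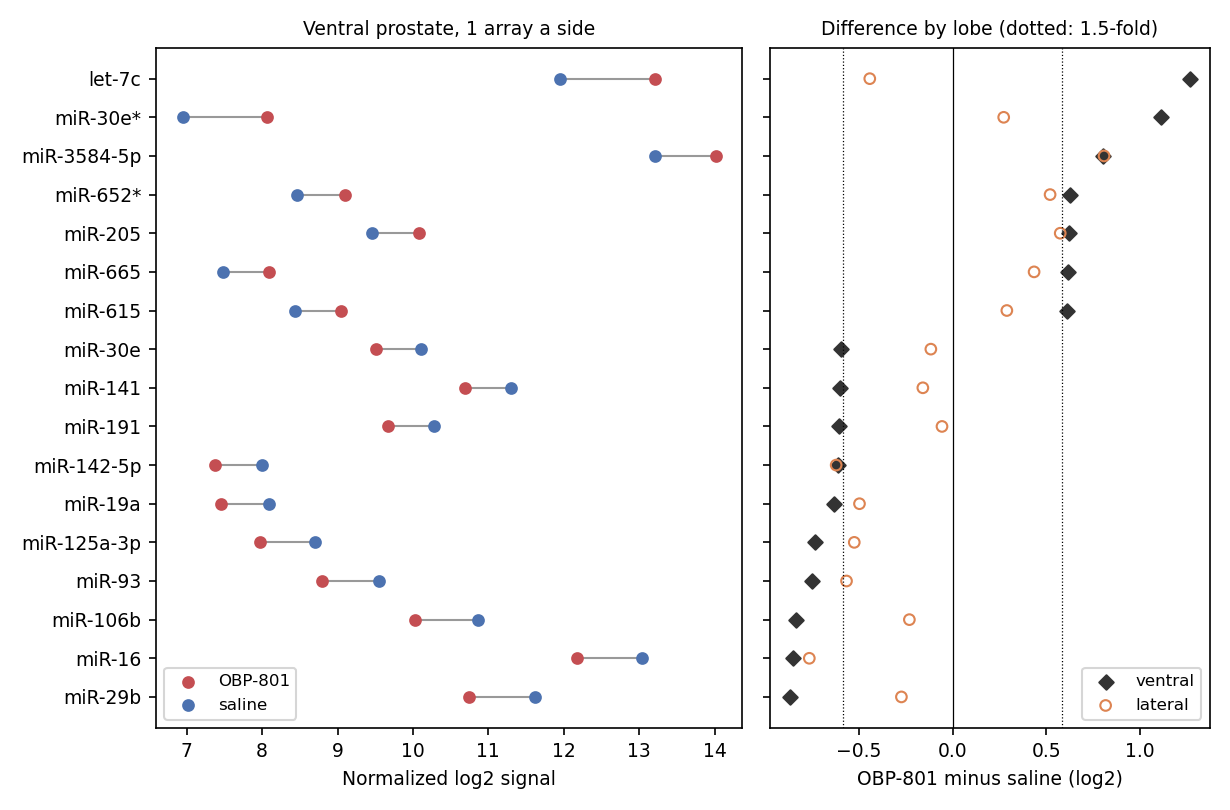
The 17 miRNAs at least 1.5-fold apart, with the normalized log2 signal on the ventral OBP-801 and saline arrays (left panel, 1 array a side) and the difference, OBP-801 minus saline in log2, in ventral and lateral prostate (right panel). Dotted lines mark 1.5-fold; let-7c at 1.27 in ventral and -0.44 in lateral prostate is the one miRNA whose normalized lobes lie on opposite sides of 0, although its lateral spot was brighter with OBP-801 (12202) than with saline (10588).

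The lateral lobe, with 1 array of OBP-801 and 1 of saline of its own, gave normalized values on the same side of 0 for 16 of these 17. Among the 242 miRNAs detected on all 4 arrays 152 (62.8%) lay on the same side in both lobes. miR-3584-5p, miR-16 (-0.77) and miR-142-5p (-0.62) were past 1.5-fold in the lateral lobe as well, where 6 of 271 miRNAs (2.21%) were higher and 7 (2.58%) lower at that fold. miR-106b (-0.23), miR-29b (-0.27), miR-141 (-0.16), miR-30e (-0.12) and miR-191 (-0.06) were not. Each difference between lobes rests on 4 single arrays and was not tested, and the lobes were normalized together. Lateral medians by print block were -0.15 in block 1, -0.13 in block 2, 0.01 in block 12 and 0.10 in block 15. By print row they were -0.06, -0.02, 0.07 and 0.20 in rows 1, 2, 3 and 4. The part of print position in the 16 of 17 was not tested.

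The clusters known as oncomiRs, which promote cell division, held members on both sides of 0, with the miR-17 seed wholly below it. The miR-17 seed family, shared by the miR-17-92 cluster and its relatives and known to repress Cdkn1a, was detected in full, and 5 of 5 members lay below 0. Their median was -0.52, against -0.02 over all 260, of which 52.7% lay below 0. Among the 5, miR-106b and miR-93 were at least 1.5-fold lower, as were 3.85% over all. miR-20b-5p had 440 with OBP-801 and 660 with saline (-0.52), miR-17-5p 597 with OBP-801 and 813 with saline (-0.42), and miR-20a 426 with OBP-801 and 558 with saline (-0.38). All 5 spots were dimmer on the OBP-801 array, all 5 stayed below 0 in 13 of 14 alternatives and the 2 still measured did above 4 times the limit, and the family's median stayed between -1.06 and -0.45 over the alternatives. Of the other seeds of these clusters 6 of 7 probes were detected, 4 below 0 and 2 above, with a median of -0.35. miR-19a led them, followed by miR-18a at -0.46, miR-25 at -0.38 and miR-92a at -0.32, while miR-92b at 0.11 and miR-19b at 0.24 lay above 0. In the cluster within Mcm7, miR-25, miR-25*, miR-93 and miR-106b all lay below 0, from -0.84 to -0.19. miR-106b*, the minor arm there, was detected only with saline, at 107 with OBP-801 and 140 with saline.

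The miR-15 and miR-16 family, which shares 1 seed, lay on both sides of 0. miR-15b had 1867 with OBP-801 and 1356 with saline, a difference of 0.38, while miR-16, which lies beside it within Smc4, was at -0.85. With print block medians removed miR-15b, printed in block 14, was at 0.31 and miR-16, printed in block 2, at -0.66. miR-195 at 0.20 and miR-497 at 0.09, from another cluster, lay above 0 and miR-322 at -0.22 below. With 1.24 between its highest and lowest member this family had the second widest range, after let-7 with 1.71, of the 9 seed families with at least 3 members among the 217 detected miRNAs that have a matched sequence. The miR-29 family came next at 0.87, with miR-29a at 4537 with OBP-801 and 5542 with saline (-0.31) and miR-29c at 0.00.

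All 5 miRNAs of the epithelial miR-200 family were detected on both arrays, as were miR-205 and miR-203 (-0.15). miR-200b, which represses Zeb1 and Zeb2, had 16479 with OBP-801 and 17969 with saline. Its normalized difference was 0.27, and it turned below 0, as all 5 members did, without normalization and with median centring, spike control scaling, cyclic loess or the authors' deposited table. miR-200a had 11685 with OBP-801 and 16779 with saline, a difference of -0.54. miR-200c had 3338 with OBP-801 and 3593 with saline, a difference of -0.47, and of -0.11 without normalization. With miR-141 at -0.60 and miR-429 at -0.15, 4 of 5 members of the miR-200 family lay below 0, against 52.7% over all, 1 of them was at least 1.5-fold lower, against 3.85% over all, and the median was -0.47. That median lay between -0.54 and -0.14 over the alternatives. miR-21, which represses Pdcd4, had 14402 with OBP-801 and 21101 with saline, a difference of -0.27. Quantile normalization gives a spot that keeps its rank a difference of 0, and a spot that changes rank can get a larger difference or the other sign. miR-200b and miR-21 exchanged ranks 1 and 2 by brightness. Without normalization they were at -0.12 and -0.55. The sensory and epithelial cluster of miR-183, miR-96 and miR-182 lay at -0.02, -0.34 and -0.21, and miR-183 lay above 0 without background correction, with the blank mean subtracted, with print row medians removed and with the G and C trend removed. miR-375 at -0.30 and miR-7a at -0.42, known from endocrine cells, and the neural miR-9 at -0.32 also lay below 0.

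Of miR-199a and miR-214 3 of 3 lay above 0, against 123 of 260 over all, with none past 1.5-fold. miR-199a-3p, which is known from fibroblasts and mesenchyme, had 815 with OBP-801 and 655 with saline, a difference of 0.57. The other arm, miR-199a-5p, was at 0.48 and miR-214, from the same transcript, at 0.34. Their median of 0.48 was 0.02, with 1 of the 3 below 0, in the authors' deposited table. miR-143 of smooth muscle had 3267 with OBP-801 and 2662 with saline (0.16) and miR-143* was at 0.13, whereas miR-145 from the same cluster had 3148 with OBP-801 and 2888 with saline (-0.31). By brightness the spot of miR-145 was number 22 with OBP-801 and number 18 with saline, and quantile normalization goes by rank, so its difference lay below 0 although its spot was brighter with OBP-801. Without normalization it was 0.13. Of the miR-99, miR-100 and miR-125 family 4 of 5 lay above 0, with a median of 0.31. miR-99a had 1707 with OBP-801 and 1259 with saline (0.48), miR-100 1476 with OBP-801 and 1163 with saline (0.39), and miR-125b-5p 3988 with OBP-801 and 2781 with saline (0.31), while miR-99b was at -0.11. miR-126 of endothelium had 1392 with OBP-801 and 1029 with saline (0.47), and its other arm was at 0.11.

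Of 6 leukocyte miRNAs 5 lay below 0, with a median of -0.13. It was 0.03 over the 5 that have a sequence, which leaves out miR-150, once the base composition trend was removed. miR-142-5p was past 1.5-fold, miR-223 of myeloid cells had 356 with OBP-801 and 509 with saline (-0.57), and miR-142-3p was at -0.15. miR-150 of lymphocytes lay above 0, with 274 with OBP-801 and 223 with saline (0.38). The spot signals of this list summed to 1909 with OBP-801 and 2229 with saline, and those of miR-199a and miR-214 to 1875 with OBP-801 and 1529 with saline. Those of the miR-200 family summed to 34742 with OBP-801 and 42439 with saline. The summed signals of these lists thus differed between the arrays, and their part in the differences of single miRNAs was not tested. In bulk tissue fewer cells of a type and less RNA per cell cannot be told apart.

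Most of the erythroid, striated muscle, liver, pancreas and neuronal markers were dim or not detected. The erythroid miR-451 had 242 with OBP-801 and 252 with saline (-0.04), and miR-144 was not detected. Of 8 striated muscle probes miR-133a (0.03) and miR-133b (0.26) were detected on both arrays, miR-206 only with saline, and miR-1, miR-208 and miR-499 on neither. The 5 liver and pancreas miRNAs were detected on neither array, with signals of 79.9 to 104 with OBP-801 and 89.7 to 102 with saline. Of 6 neuronal miRNAs miR-128 (-0.28) was detected on both arrays, miR-129 and miR-218a only with OBP-801, and miR-124, miR-137 and miR-138 on neither.

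**Figure D3:**
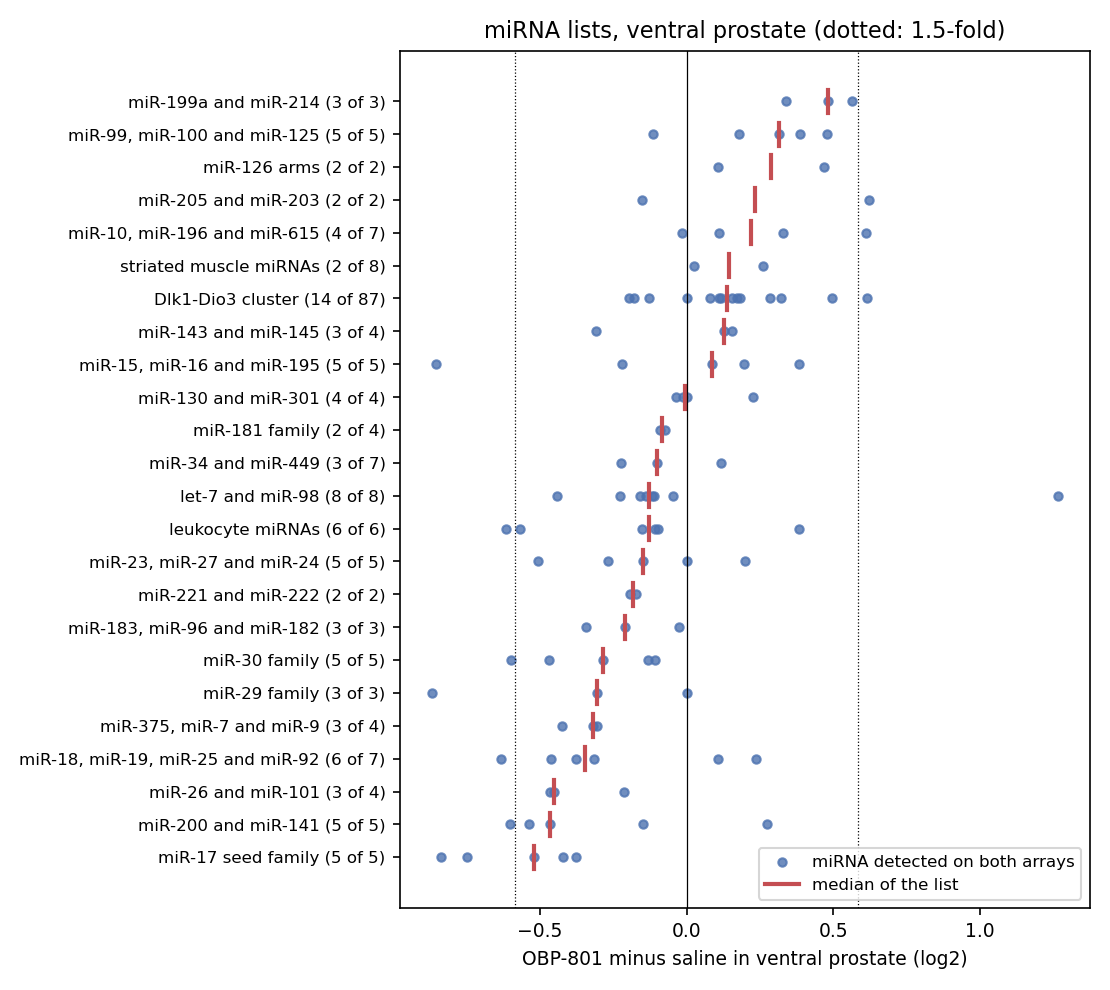
Difference, OBP-801 minus saline in log2, of each miRNA detected on both ventral arrays (points) by list, with the list's median (bar). The numbers in brackets are the members detected on both arrays of the probes in the list; the miR-17 seed family lies wholly below 0 and miR-199a with miR-214 wholly above it, while let-7c stands alone on the right at 1.27.

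The other lists had medians nearer 0 or few detected members. miR-26b at -0.46, miR-101a at -0.45 and miR-101b at -0.21 lay below 0 in 3 of 3, and miR-26a, at 6198 with OBP-801, had a faulty spot on the saline array and no difference. miR-23b had 3704 with OBP-801 and 4823 with saline (-0.51), while its paralogue miR-23a had 3954 with OBP-801 and 2813 with saline (0.20). With print block medians removed miR-23b, printed in block 2, was at -0.32 and miR-23a, printed in block 14, at 0.13. miR-27a (-0.27), miR-27b (-0.15) and miR-24 (0.00) made up the rest of that family. miR-221 and miR-222, which repress Cdkn1b, lay at -0.19 and -0.17. The p53 target miR-34a had 282 with OBP-801 and 394 with saline (-0.22), with miR-194 at -0.10 and miR-192 at 0.12. Detected members of the miR-181 family lay at -0.07 and -0.09. The miR-130 and miR-301 family had a median of 0.00, with 2 of 4 above 0. Of the Hox cluster miRNAs miR-10a-5p was at 0.33, miR-10b at 0.11 and miR-196b at -0.02, beside miR-615. miR-320, which is processed without Drosha, had 175 with OBP-801 and 196 with saline (-0.11), and miR-320* had 158 with OBP-801 and 156 with saline (0.13).

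The imprinted Dlk1-Dio3 cluster has 87 probes, and 14 of these passed the limit on both arrays, against 38.3% of all probes, 11 of them above 0 and 3 below. Their median was 0.14, and 1 of the 14, miR-665, was at least 1.5-fold higher, against 2.69% over all. miR-666 at 0.50 came next. miR-494 had 1224 with OBP-801 and 1270 with saline (-0.18), and miR-770 was at -0.20. The list's median was -0.20 in the authors' deposited table, where that of all miRNAs was -0.47. The miR-143 and miR-145, miR-15 and miR-16, and Hox cluster lists also turned below 0 in that table, at -0.22, -0.28 and -0.22.

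Minor arms more often lay above their major arms than below. Of 58 precursors with a starred and an unstarred arm detected on both arrays, the star lay higher in 41, with a median gap of 0.17. The 64 starred miRNAs had a median of 0.08 and the 196 others -0.05. miR-652* at 0.63 and miR-652, with 166 with OBP-801 and 225 with saline (-0.52), were 1.14 apart. miR-29b-2* at 0.08 lay 0.95 above miR-29b, but its spot was near the limits, at 121 with OBP-801 and 126 with saline. The offset makes differences of dim arms smaller, but the star was not always the dimmer spot. With OBP-801 miR-92b* had 4365 and miR-92b 165. The parts of dimness, G and C content and print row in the count of 41 were not tested. Among arms named by their end, miR-125a-3p at -0.74 lay below miR-125a-5p at 0.18, and miR-3584-3p at 0.06 lay below miR-3584-5p.

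Among miRNAs detected on 1 array only, the difference can have only a bound. Its dim side is the higher of the lowest detected normalized value and the miRNA's own value. The bounds are in normalized signal and are not bounds on the ratio of the spot signals printed beside them. miR-206, a skeletal muscle miRNA, had 107 with OBP-801 and 166 with saline, and was at least 1.56-fold lower with OBP-801. The next bounds on that side were 1.23 for miR-106b*, 1.17 for miR-378*, 1.15 for miR-325-3p and 1.12 for miR-105. Of those detected only with OBP-801, miR-484 had 142 with OBP-801 and 120 with saline, at least 1.39-fold higher. miR-324-3p (1.30), miR-351* (1.28), miR-1188-5p (1.22) and miR-145* (1.22) followed. The median bound was 1.11 over the 29 that had one with OBP-801 and 1.06 over the 39 values with saline, 5 of which were under 1 and so gave no bound.

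The following measures moved with the differences, and their part in the 17 was not tested. The first was brightness. The SD of the differences was 0.14 over the dimmest 52 of the 260 and 0.43 over the brightest 52, and 9 of the 17 lay among these brightest. With the mean of the blank spots subtracted and no offset, the SD was 0.47 over the dimmest 52 and 0.44 over the brightest 52.

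The second was base composition. Mature sequences were found for 217 of the 260 (83.5%), and across them the difference rose with the share of G and C (Pearson's r = 0.33, Spearman's rho = 0.37). These miRNAs share the same 2 arrays, and r was 0.40 over the brighter 108 and 0.22 over the dimmer 109. The 30 miRNAs with at most 40% G and C had a median of -0.21, with 26 below 0, and the 68 above 55% had a median of 0.08, with 42 above 0. The 10 miRNAs past 1.5-fold lower had a median of 41.9% G and C and the 6 higher ones with a sequence 60.0%, against 50% over all. miR-29b, at 34.8%, and miR-3584-5p, at 72.2%, lay at either end, whereas let-7c, at 40.9%, lay against the trend. In the lateral lobe r was 0.32 over 221 miRNAs. Over the 109 miRNAs in the first print row of each block of the ventral arrays, r was 0.19.

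**Figure D4:**
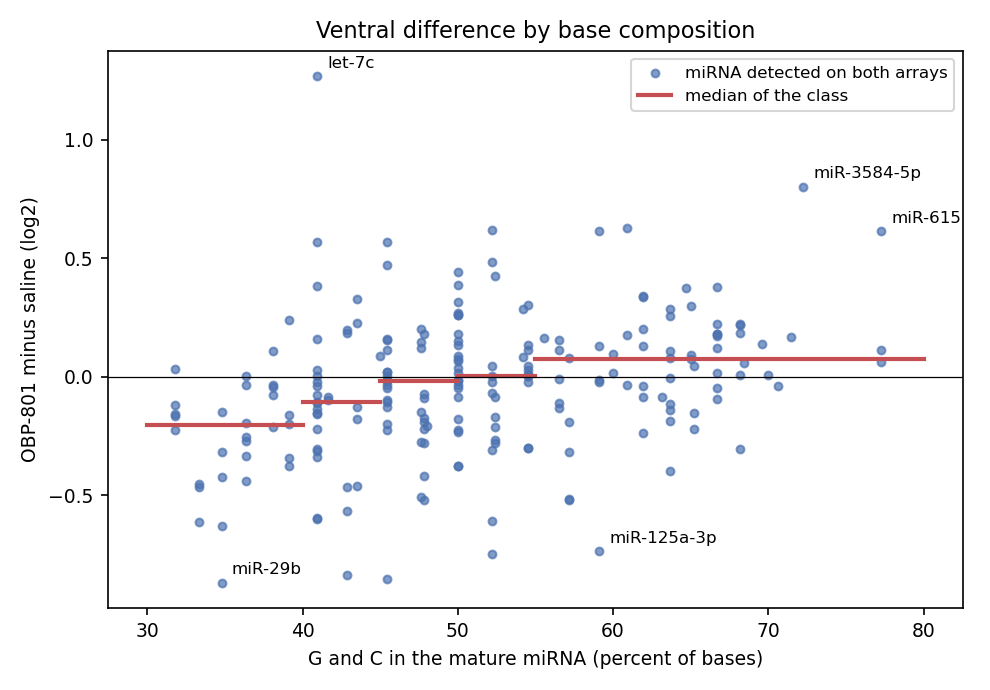
Difference, OBP-801 minus saline in log2, against the percent of G and C in the mature sequence for the 217 miRNAs with a sequence (points), with the median of each class of composition (bars). The class medians run between -0.21 at up to 40% and 0.08 above 55%.

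The third was position on the slide, where spots are printed in 16 blocks. Of the 10 lower miRNAs 9 lay in blocks 1 to 4, which hold 63 of the 260, and 6 of the 7 higher ones in blocks 11 to 16, which hold 96, a split chosen after the values were seen. The median difference was -0.21 in block 1 and -0.19 in block 2, against 0.10 in blocks 12 and 15. Blank spots differed by -0.13 in block 1 and by -0.17 in block 15, where let-7c and miR-3584-5p lie. By rows within the blocks, the first row, with 126 miRNAs, had a median of -0.11 and held 9 of the 10 lower ones, and the third, with 49, had 0.11. Base composition moved with the rows. The median share of G and C was 45.5%, 50%, 57.1% and 61.9% in rows 1, 2, 3 and 4. The separate parts of row and composition were not tested. Both ventral arrays carry 1 slide number, with OBP-801 at the second position and saline at the first, and an effect of position cannot be told apart from one of OBP-801. With the block medians removed 5 were at least 1.5-fold higher and 4 lower, and let-7c stood at 1.17 and miR-30e* at 1.04.

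**Figure D5:**
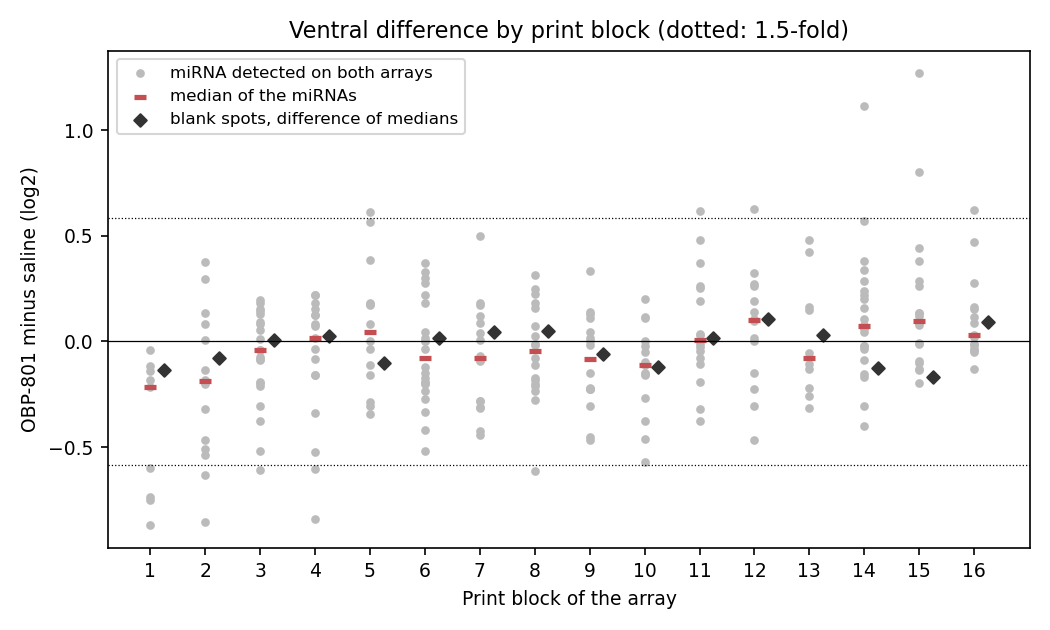
Difference, OBP-801 minus saline in log2, of each miRNA detected on both ventral arrays by print block (grey points), with the block's median (bar) and the difference of the block's median blank spot (diamond). Dotted lines mark 1.5-fold; the lower miRNAs gather in blocks 1 to 4, and let-7c tops block 15.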

How the data were processed

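Per the labels' protocols, total RNA from prostate tissue was extracted with a column kit and labelled with the dye Hy5, 1 RNA per array. For the array maker, the scanner software and the number of rats per array, nothing was given in the sources used here. Per the file headers, the deposited scanner files hold the median intensity of each spot in 1 colour, which is neither background-corrected nor normalized. The authors' deposited value table holds linear intensity values scaled to a median of 25 on each array, and how they were made is not stated in the labels.

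An array has 3136 spots, with 679 miRNA probes, 2278 blank spots, 24 negative controls and 8 spots per spike control. Here the deposited intensity was corrected with normexp and an offset of 50 over all spots, quantile-normalized over the 4 arrays and converted to log2 with limma 3.58.1 in R 4.3.3. Tables were made with pandas 2.3.3 in Python 3.11.15, and the steps were tested on simulated data. The simulated arrays held no trend by base composition or print position, and large changes were planted only among bright probes. Calls near 1.5-fold and such trends were therefore not covered by it. The faulty spot of miR-26a on the ventral saline array was set to missing. With 1 array a side a call means a fold of at least 1.5 or 2, and the number of arrays limits the precision. Blank spots averaged 100.1 (SD 8.18) with OBP-801 and 101.9 (SD 11.0) with saline, and negative controls 98.5 with OBP-801 and 110.0 with saline. The first spike control averaged 39583 with OBP-801 and 38326 with saline. The second went the other way, with 32649 with OBP-801 and 35692.5 with saline.

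The miRNAs named were those past 1.5-fold, the 5 largest bounds on each side, the 8 brightest spots of each array, the extreme and brightest members of 28 lists, the arms of miR-320, the 5 precursors with the widest gap between arms, the 3 widest seed families and the 2 miRNAs on each side of the detection limits. The comparison, the lists and the naming rule were chosen with earlier results of these data known. RefSeq sequences (GRCr8) were matched by mature name, directly or through renamed arms, for 421 of 679 probes. The alternatives changed the background correction, the normalization, the filter on dim probes, the source of the values and the correction for print position.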

Additional observations from a re-analysis of the deposited data

Results flagged for a closer look

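let-7c was 1.27 higher on the log2 scale with OBP-801 than with saline in the ventral prostate, and its difference in the lateral prostate was -0.44. It is listed because these normalized differences have opposite signs. The lateral spot was brighter with OBP-801 (12202) than with saline (10588), so the spot signals went the same way in both lobes and the normalized values did not. The difference between the lobes rests on single arrays and was not tested. In the ventral lobe the value lay between 1.17 and 1.61 in 14 of 14 alternatives.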

How the results depend on the processing

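At least 2-fold higher were 2 miRNAs, and 3 with the blank mean subtracted and no offset. There was 1 without background correction, above 4 times the detection limit or with the trend on G and C content removed. The last 2 of these settings did not measure miR-30e*, and the trend was fitted to the 217 with a sequence. At least 2-fold lower were 0, and 4 with the blank mean subtracted and no offset or 38 in the authors' deposited table, where the median of all miRNAs was -0.47. At least 1.5-fold higher were 7. There were 4 without background correction, without normalization, with median centring, with spike control scaling, with quantile normalization of the 2 ventral arrays alone, with cyclic loess and in the deposited table, 19 with the blank mean subtracted and 3 above 4 times the limit. At least 1.5-fold lower were 10, against 30 with the blank mean subtracted, 105 in the deposited table, 4 with print block medians removed, 6 above 4 times the limit, and 5 each with print row medians or the G and C trend removed. Higher calls made up 41.2% of the 17, against 28.6% without normalization or with median centring (10 lower each), 3.67% in the deposited table, 55.6% with print block medians removed and 64.3% with print row medians removed (9 higher). Removing print row medians and the G and C trend was chosen after seeing the data. No named miRNA past 1.5-fold changed sign in any alternative. Of 403 values of single miRNAs 50 moved by at least 0.26, the robust SD of all differences, 20 of them in the deposited table, and of 253 list medians 22 did, 17 of them there. Only let-7c and miR-30e* of the higher miRNAs, and miR-29b, miR-16 and miR-106b of the lower ones, were past 1.5-fold in each alternative that measured them. Why these counts change was not tested. Without replicates none could be left out, and the slide could not be a block because both ventral arrays carry 1 slide number. No paired analysis was possible because each group has 1 array.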
